A study of Homo sapiens with 9 samples.

Results

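Integrin and laminin genes were followed in LAN5, an established line of human neuroblastoma cells with MYCN amplification. The 33 genes were taken by symbol from a table of 25084 genes, as every symbol made of ITGA or ITGB with a subunit number or letter, or of LAMA, LAMB or LAMC with a number. They comprised 22 integrins (16 alpha and 6 beta subunits) and 11 laminins (4 alpha, 4 beta and 3 gamma chains). Of these, 20 reached 1 CPM (a gene's reads scaled to the number of reads assigned in that library) in at least 3 of the 9 libraries and were tested, while 13 stayed under that level. ITGAX, ITGAD, ITGB2, ITGB6 and LAMA2 were not analysed here. Total RNA had been collected 72 h after nucleofection, a form of electroporation, with one of the following siRNAs: a control (siCTR), one to MYCN labelled siMYCN_2 (siMYCN), or one to HAND2 labelled siHAND2_3 (siHAND2). There were 3 libraries per siRNA, all of the same line in the same serum-containing medium. Each knockdown therefore rests on 1 siRNA label in 1 cell line. The series title asks which genes MYCN and HAND2, a pair of helix-loop-helix transcription factors, regulate in these cells. Nothing in the labels says that the libraries of a group came from separate cultures, so the p-values measure only the spread between these libraries, which may be technical.

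Integrins are receptors that join cells to the matrix around them, each built of an alpha and a beta subunit, and the alpha subunit largely sets which ligand is bound. Laminins are secreted trimers of an alpha, a beta and a gamma chain that form the scaffold of basement membranes. They are ligands for integrins, among them those with ITGA3, ITGA6 or ITGA7. Neural crest cells and their sympathetic descendants, from which neuroblastoma arises, migrate and extend neurites on laminin through such receptors.

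Reads assigned to genes, taken from the smallest step between CPM values, lay between 21.1 M and 32.7 M per library, so 1 CPM stood for 21.1 to 32.7 reads and carried a counting error of 17.5% to 21.8%. MYCN averaged 1842 ± 54.2 CPM with siCTR, 1289 ± 47.0 after MYCN knockdown and 914 ± 48.4 after HAND2 knockdown, and HAND2 measured 501 ± 13.7, 571 ± 15.9 and 272 ± 7.65 CPM (SD, n = 3 libraries each). Each target was lower under its own siRNA than in siCTR (limma adjusted p = 7.15e-07 for MYCN and 1.25e-10 for HAND2), but MYCN was lower still in siHAND2 than in siMYCN (log2 difference -0.50, adjusted p = 6.21e-07). The summed level of 8 noradrenergic markers was 2074 to 2213 CPM in the siCTR libraries, 2628 to 2710 CPM after MYCN knockdown and 2117 to 2220 CPM after HAND2 knockdown, with ELAVL4 alone at 953 to 1134 CPM. Of the 7 tested, 6 rose in siMYCN, while in siHAND2 STMN2 rose and DBH, TH and DDC fell. The part of this shift in the changes of the integrin and laminin genes was not tested. The summed levels of the leukocyte, endothelial and Schwann markers that had a row were at most 0.964, 1.45 and 2.68 CPM in any library, and PTPRC, CD14, PECAM1 and CDH5 stayed under 0.2 CPM. The 2 epithelial markers with a row summed to 2.83 to 3.99 CPM, with KRT8 under 0.2 CPM, and the single platelet marker with a row to at most 0.822 CPM. Strand use in counting is not given in the sources used here, and 10 of the 20 tested members overlap genes of the opposite strand.

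In siMYCN, 10 of the 20 tested members rose against siCTR and 3 fell, where 24.5% of all 14495 genes tested rose and 11.4% fell and 35.9% were called either way (limma on log2(CPM + 1), two-sided, Benjamini-Hochberg adjusted p under 0.05 over all genes tested). The rises included 6 of 10 tested integrin alpha subunits, the main beta subunit ITGB1, and LAMA4, LAMA5 and LAMB2, and the falls were those of ITGB5, LAMA1 and LAMB1. In siHAND2, 5 members rose and 2 fell, where 18.1% of all genes rose, 11.8% fell and 29.9% were called either way. The risers were ITGA1, ITGA6, ITGA9, LAMA3 and LAMA4, and the fallers ITGA2 and ITGB5. LAMA3 reached the level for testing only through its siHAND2 libraries, so it had to differ, and 4 risers remain without it. LAMA4, a riser in both knockdowns, had no siCTR library at 1 CPM and reached that level only through its 6 knockdown libraries.

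The median log2 fold change of the tested members was 0.25 in siMYCN and 0.09 in siHAND2, beside 0.06 and 0.04 over all genes tested. Higher in both knockdowns were ITGA1, ITGA6, ITGA9 and LAMA4, where 9.91% of all genes tested were higher in both, and lower in both was ITGB5, where 5.75% were. Both contrasts use the same siCTR libraries, so a shared direction is not independent evidence. Groups without overlap were also frequent among all genes. In siMYCN all 3 libraries lay above siCTR for 13 members and below it for 4, against 33.4% and 16.1% of all genes, and in siHAND2 for 9 and 4, against 25.8% and 16.6%. Between siHAND2 and siMYCN the counts were 5 above and 6 below, against 17.1% and 21.6%. The 9 members above siCTR in siHAND2 and these 5 include LAMA3, whose siHAND2 libraries had to lie apart because of the filter. The split of the calls depended on how libraries were scaled. In siMYCN it was 10 higher and 3 lower with deposited CPM, 9 and 5 after median-ratio rescaling and 7 and 5 after quantile normalization. In siHAND2 it was 5 and 2, 4 and 5, and 5 and 5. The split over all genes tested moved as well. Of all genes called in siMYCN, 68.3%, 49.7% and 49.3% were higher under these scalings in turn. Of those called in siHAND2, 60.6%, 42.1% and 47.8% were higher.

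The direct comparison of siHAND2 with siMYCN does not use the siCTR libraries and tests where the knockdown groups differ. It sets the siRNAs themselves against each other, with MYCN lower in siHAND2 (914 CPM) than in siMYCN (1289 CPM). It called 5 members higher (4 without LAMA3) and 7 lower in siHAND2, where 11.4% of all genes were higher, 15.5% lower and 26.9% called either way. Higher in siHAND2 were ITGA1, ITGA6, LAMA1, LAMA3 and LAMA4, and lower were ITGA3, ITGA8, ITGA9, ITGAV, ITGB1, ITGB5 and LAMB2. The median over the tested members was -0.10, beside -0.01 over all genes tested. All fold changes below are on the log2(CPM + 1) scale, which understates the change of genes near 1 CPM.

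**Figure D1:**
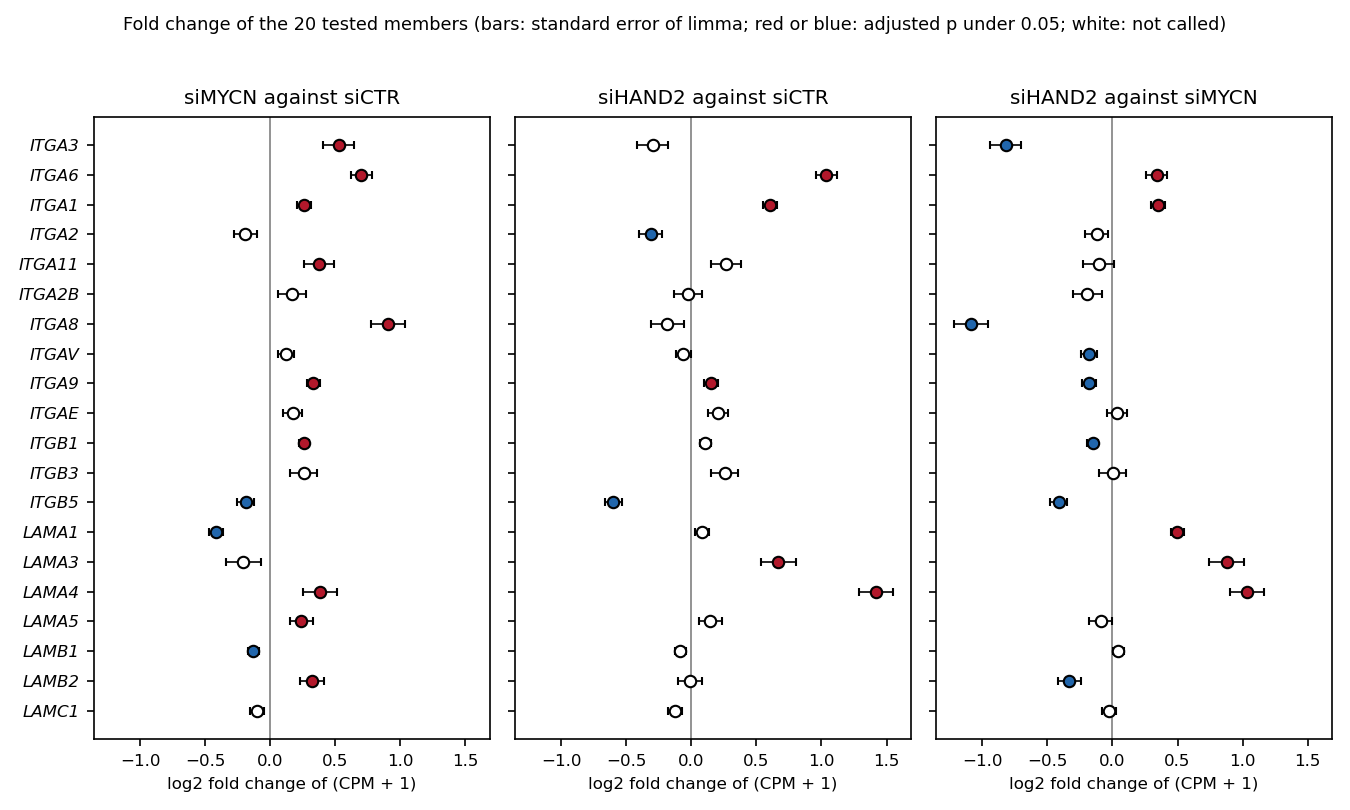
Log2 fold change of CPM + 1 (x axis) for the 20 tested integrin and laminin genes in the 3 contrasts, with standard errors of limma as bars. Red and blue points passed an adjusted p of 0.05 and white points did not; LAMA4 in siHAND2 lies farthest from 0 among the contrasts with siCTR, at 1.42.

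In control cells the levels as CPM per kb of merged exons were compared between genes. Exons were merged over all transcripts of a gene, so the order depends on these lengths, such as 8270 bases for ITGA9 and 19336 for ITGAV. ITGB1, the beta subunit that pairs with most alpha subunits, stood at 37.9 ± 0.614 CPM per kb (SD, n = 3 libraries). It made up 90.8 ± 0.162% of the total over the beta subunits followed here, without ITGB2 and ITGB6. Of the alpha subunits, ITGA9 (5.01 ± 0.218 CPM per kb), ITGA1 (4.51 ± 0.0405) and ITGAV (4.34 ± 0.155) led, followed by ITGA2 at 2.30 ± 0.167 and ITGA6 at 1.74 ± 0.236. In mean CPM the order differed, with ITGAV (83.9) and ITGA1 (83.6) above ITGA9 (41.4). Among laminin chains, LAMC1 stood at 12.6 ± 0.653 CPM per kb, LAMB1 at 8.25 ± 0.136 and LAMA1 at 2.13 ± 0.0465. In mean CPM, LAMB1 (153) stood above LAMC1 (107). LAMA1 held 65.6 ± 2.96% and LAMA5 31.8 ± 3.00% of the total over the laminin alpha chains followed here, without LAMA2. ITGA5, the classical fibronectin receptor subunit, was at or under 0.132 CPM in every library.

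ITGA6 and ITGA3, the alpha subunits of the main laminin receptors, parted between the knockdowns. ITGA6 (chromosome 2, 172427354 to 172506459, GRCh38) stood at 11.6, 13.3 and 10.1 CPM in replicates 1, 2 and 3 of the siCTR group, 18.6, 19.8 and 19.8 CPM after MYCN knockdown, and 26.4, 23.5 and 24.6 CPM after HAND2 knockdown. The 3 groups did not overlap, with siCTR lowest and siHAND2 highest. ITGA6 rose by 0.70 in siMYCN (standard error 0.08, limma adjusted p = 7.15e-06) and by 1.04 in siHAND2 (standard error 0.08, adjusted p = 7.27e-08). The direct difference of siHAND2 from siMYCN was 0.34 (adjusted p = 0.00509). In all 19 alternatives run for each of the 3 contrasts, the ITGA6 calls held. The antisense gene ITGA6-AS1, which overlaps it on the other strand, was at or under 0.115 CPM in every library.

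ITGA3 (chromosome 17, 50055968 to 50090481) stood at 2.78, 2.25 and 2.52 CPM in the siCTR libraries, 4.07, 3.83 and 4.25 CPM after MYCN knockdown, and 1.58, 1.67 and 2.37 CPM after HAND2 knockdown. The siMYCN libraries lay above all others, while siHAND2 replicate 3 overlapped siCTR. ITGA3 rose by 0.53 in siMYCN (standard error 0.12, limma adjusted p = 0.00252). In siHAND2 it changed by -0.30 (adjusted p = 0.0683), which missed the threshold but passed it after median-ratio rescaling (-0.34), after quantile normalization (-0.38) and without siHAND2 replicate 3 (-0.42). The direct difference was -0.82 (standard error 0.12, adjusted p = 5.75e-05), opposite in sign to that of ITGA6. ITGA7, grouped with ITGA3 and ITGA6 as laminin-binding and best known from muscle, stayed under 1 CPM, at 0.285 to 0.805 CPM.

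Sequences upstream of the genes that moved in the same direction in both knockdowns are shown because MYC and MYCN proteins with their partner MAX bind the hexamer CACGTG, and HAND2 with its E-protein partners binds hexamers such as CATCTG. RefSeq promoter windows (GRCh38.p14, 250 bases before to 50 after the annotated start) were given for 24 of the 33 members, ITGA9 not among them. The printed stretches are the 250 bases before the start of ITGA6 and ITGA1, which were higher, and of ITGB5, which was lower, in the direction of transcription. Capitals mark CACGTG and CATCTG or its reverse complement CAGATG. LAMA4 is not printed because its RefSeq start lies 372 bases inside the span given in the table.
ITGA6, chr2:172427086-172427335, plus strand: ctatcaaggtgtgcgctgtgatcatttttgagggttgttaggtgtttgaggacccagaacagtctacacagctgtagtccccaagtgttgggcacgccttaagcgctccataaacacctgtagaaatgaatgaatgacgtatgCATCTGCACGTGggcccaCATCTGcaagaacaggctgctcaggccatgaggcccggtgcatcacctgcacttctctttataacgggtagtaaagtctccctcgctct
ITGA1, chr5:52787666-52787915, plus strand: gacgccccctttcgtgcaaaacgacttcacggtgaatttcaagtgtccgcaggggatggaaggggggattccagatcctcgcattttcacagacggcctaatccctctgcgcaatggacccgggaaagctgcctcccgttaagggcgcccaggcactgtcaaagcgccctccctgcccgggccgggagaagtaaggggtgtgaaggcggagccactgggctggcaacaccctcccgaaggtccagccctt
ITGB5, chr3:124901419-124901668, minus strand: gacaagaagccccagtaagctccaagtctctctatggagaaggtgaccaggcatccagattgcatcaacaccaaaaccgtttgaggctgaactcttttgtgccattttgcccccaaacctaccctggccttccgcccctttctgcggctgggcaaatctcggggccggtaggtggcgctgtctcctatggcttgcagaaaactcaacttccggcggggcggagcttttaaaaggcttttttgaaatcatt

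The ITGA6 window held 1 CACGTG, whose first base lies 101 bases before the RefSeq start, and 2 copies of CATCTG, at 107 and 89 bases before it. The first CATCTG directly adjoins CACGTG without overlapping it, and the RefSeq start lies 18 bases from the start in the table. Of the 16 tested members with a window, ITGA6 was the only one with either hexamer, searched on both strands over all 300 bases. For LAMA3 and ITGB1 the RefSeq start lies 183577 and 47562 bases inside the span given in the table, so their windows are far from that span's start. CACGTG stood in 10.3% and CATCTG in 9.25% of the windows of the 10364 tested genes that had one, and 0.791% held both. A match describes these letters alone and no match says nothing of binding elsewhere.

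Of the collagen-binding alpha subunits, ITGA1 was called in both knockdowns. ITGA1 (chromosome 5, 52787916 to 52959209) stood at 82.8, 84.3 and 83.7 CPM in the siCTR libraries, 93.1, 105 and 103 CPM after MYCN knockdown, and 124, 121 and 138 CPM after HAND2 knockdown. The 3 groups did not overlap and kept the order seen for ITGA6. ITGA1 rose by 0.26 in siMYCN (standard error 0.05, limma adjusted p = 0.00168) and by 0.61 in siHAND2 (standard error 0.05, adjusted p = 3.63e-07). The direct difference was 0.35 (adjusted p = 0.000149), and all 3 calls held in the 19 alternatives of each contrast. PELO, which lies within its span on the same strand at 46.1 to 51.3 CPM, changed by -0.12 in siMYCN (adjusted p = 0.0467) and by -0.02 in siHAND2 (adjusted p = 0.735).

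ITGA2, the neighbour of ITGA1 on chromosome 5 (52989340 to 53094779) and the other widespread collagen receptor subunit, did not rise. It stood at 17.6, 17.2 and 19.6 CPM in the siCTR libraries, 14.6, 15.5 and 17.1 CPM after MYCN knockdown, and 13.4, 13.3 and 16.6 CPM after HAND2 knockdown. Every knockdown library lay below every siCTR library. ITGA2 fell by 0.31 in siHAND2 (standard error 0.09, limma adjusted p = 0.0121), a call lost without siCTR replicate 3 (-0.26) or siHAND2 replicate 2 (-0.26). Its change in siMYCN was -0.19 (adjusted p = 0.0976), which passed the threshold after median-ratio rescaling (-0.25) and quantile normalization (-0.26), with the 2 groups fitted alone, and without siHAND2 replicate 3 (-0.19).

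ITGA11 (chromosome 15, 68296532 to 68432163), a collagen receptor subunit of fibroblasts, stood at 1.68, 1.68 and 1.61 CPM in the siCTR libraries, 2.01, 2.88 and 2.502 CPM after MYCN knockdown, and 1.94, 2.27 and 2.41 CPM after HAND2 knockdown. It rose by 0.37 in siMYCN (standard error 0.12, limma adjusted p = 0.0207). The fits without siCTR replicate 3 (0.36), siMYCN replicate 2 (0.29) or siMYCN replicate 3 (0.36) no longer called it. In siHAND2 its change was 0.27 (adjusted p = 0.0997), and ITGA10 was at or under 0.230 CPM in every library.

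Among the subunits that bind RGD sequences, found in fibronectin, vitronectin and nephronectin, ITGA8 changed most. ITGA8 (chromosome 10, 15513954 to 15719922) stood at 1.07, 1.16 and 1.19 CPM in the siCTR libraries, 3.18, 2.88 and 2.95 CPM after MYCN knockdown, and 0.789, 0.637 and 1.28 CPM after HAND2 knockdown. The siMYCN libraries stood apart above all others, and siHAND2 replicate 3 lay above siCTR while its other libraries lay below. ITGA8 rose by 0.90 in siMYCN (standard error 0.13, limma adjusted p = 5.48e-05), the largest fitted rise of a member there. In siHAND2 it changed by -0.18 (adjusted p = 0.309), and the direct difference was -1.09 (standard error 0.13, adjusted p = 7.87e-06). As a ratio of mean CPM, siMYCN stood 2.64-fold above siCTR. Both calls held in the 18 alternatives in which ITGA8 was tested.

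ITGAV, which pairs with several beta subunits to bind vitronectin and latent TGF-beta, stood at 85.9, 80.5 and 85.4 CPM in the siCTR libraries, 91.7, 92.9 and 89.2 CPM after MYCN knockdown, and 76.7, 75.3 and 90.0 CPM after HAND2 knockdown. Although its 3 siMYCN libraries lay above siCTR, the change of 0.12 there (limma adjusted p = 0.126) was not called, and neither was that of -0.06 after HAND2 knockdown (adjusted p = 0.469). Without siHAND2 replicate 3, whose value stands apart from the other siHAND2 libraries, both passed the threshold, at 0.12 and -0.14, and the siMYCN change also passed with the 2 groups fitted alone. The direct difference was -0.18 (adjusted p = 0.0312). That call was lost without siMYCN replicate 1 (-0.18), siMYCN replicate 2 (-0.17), siHAND2 replicate 1 (-0.15) or siHAND2 replicate 2 (-0.13), and with quantile normalization (-0.16). The same call was also lost with no filter, with no intensity trend and with the 2 groups fitted alone. ITGA2B, the platelet fibrinogen receptor subunit, lay between 2.78 and 4.19 CPM with overlapping groups and was called in no contrast.

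ITGA9 (chromosome 3, 37452115 to 37823507), a receptor subunit for tenascin-C and VCAM1, stood at 41.8, 43.0 and 39.5 CPM in the siCTR libraries, 51.7, 50.5 and 55.0 CPM after MYCN knockdown, and 47.3, 44.9 and 46.1 CPM after HAND2 knockdown. The groups did not overlap, and here siMYCN was the highest. ITGA9 rose by 0.33 in siMYCN (standard error 0.05, limma adjusted p = 0.000121), which held in all 19 alternatives. The rise of 0.15 in siHAND2 (adjusted p = 0.0362) was lost after median-ratio rescaling (0.10) and quantile normalization (0.12), with no intensity trend, and without siCTR replicate 1 (0.16), siCTR replicate 3 (0.12) or siHAND2 replicate 1 (0.13). The direct difference was -0.18 (adjusted p = 0.0159), lost without siMYCN replicate 3 (-0.15) or siHAND2 replicate 2 (-0.16). The antisense gene ITGA9-AS1, on the other strand at 2.497 to 4.74 CPM, rose by 0.51 in siHAND2 (adjusted p = 0.0046) and changed by 0.23 in siMYCN (adjusted p = 0.161). Its part in the reads given to ITGA9 was not tested.

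Of the subunits named for leukocytes, ITGAE was the one tested. It lay between 8.46 and 9.25 CPM with siCTR, 9.70 and 10.8 CPM after MYCN knockdown, and 9.80 and 10.7 CPM after HAND2 knockdown. Each knockdown group was above siCTR, but neither the siMYCN change of 0.17 (limma adjusted p = 0.0882) nor the siHAND2 change of 0.20 (adjusted p = 0.0512) passed the threshold. Both passed with no intensity trend, and the siHAND2 value also did at a pseudocount or filter of 5 CPM and without siHAND2 replicate 2 (0.24). The gene overlaps HASPIN, at 24.3 to 28.7 CPM, on the other strand, and the leukocyte markers named above were near 0.

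**Figure D2:**
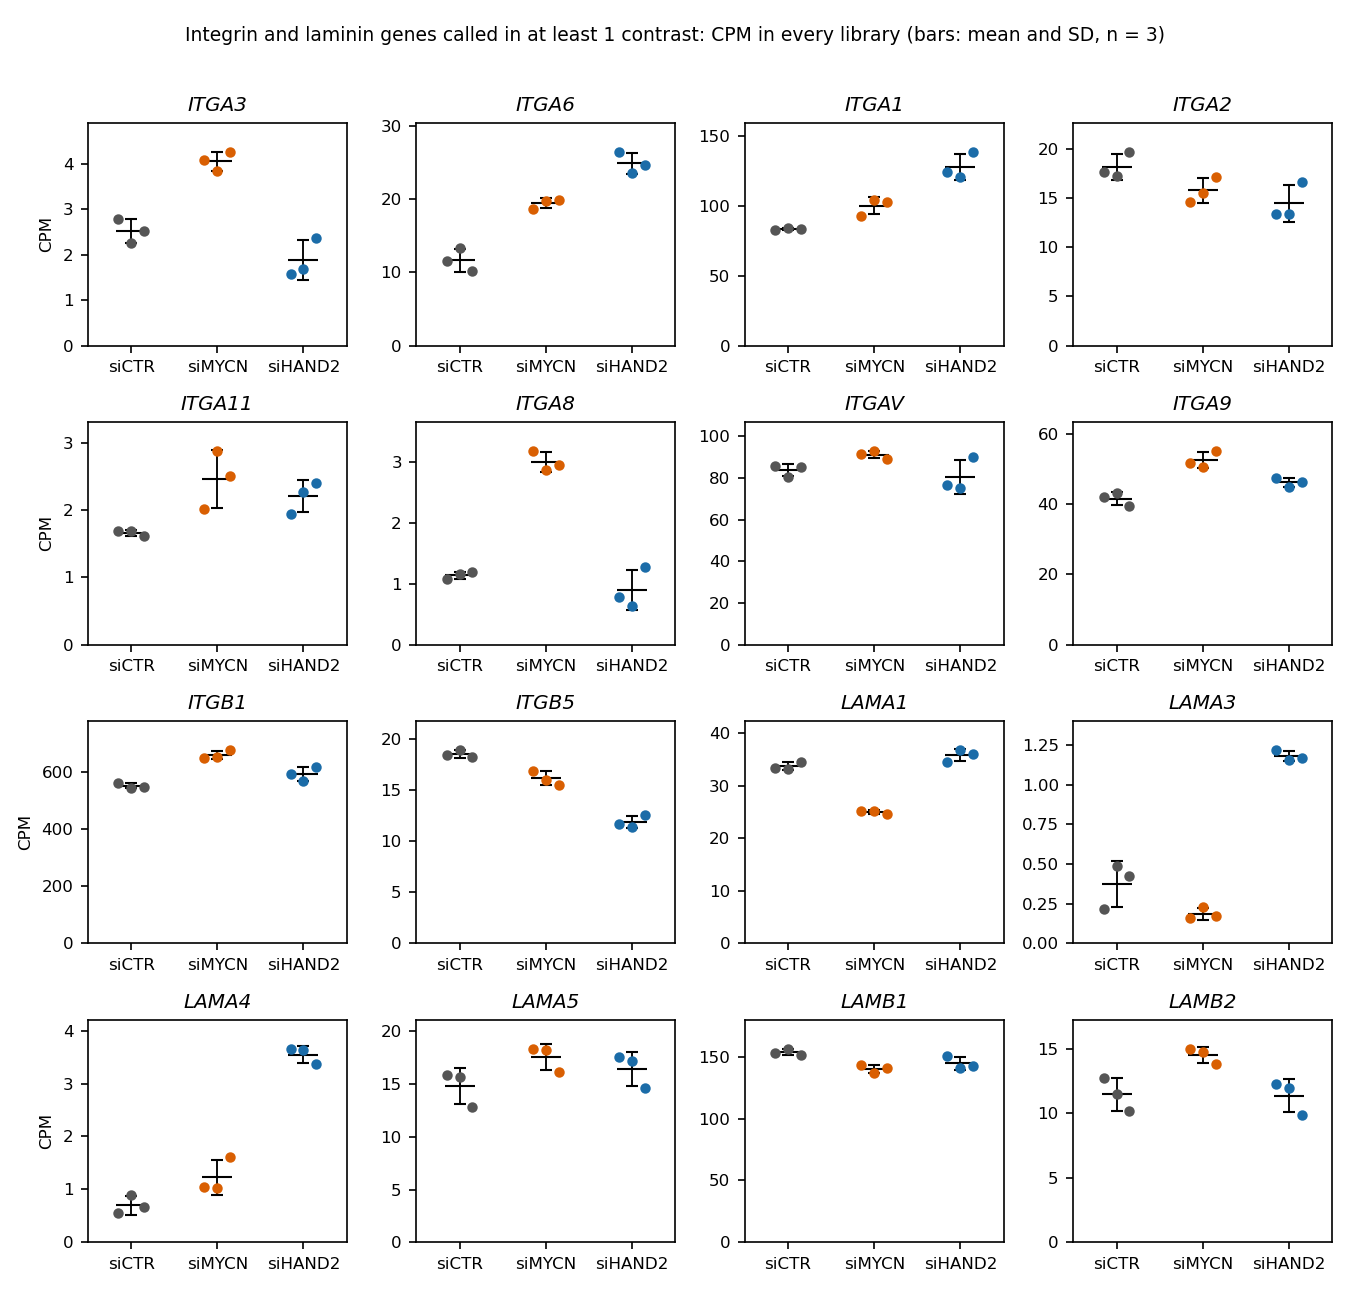
CPM (y axis, from 0) of the 16 members called in at least 1 contrast, with 1 point per library, and the mean and SD of 3 libraries as black bars. ITGA6 and ITGA1 step up from siCTR to siMYCN to siHAND2, ITGA8 and ITGA3 are highest in siMYCN, and LAMA4 and LAMA3 are highest in siHAND2.

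ITGB1 (chromosome 10, 32900318 to 33005792) stood at 561, 544 and 548 CPM in the siCTR libraries, 649.9, 654 and 677 CPM after MYCN knockdown, and 594, 569.7 and 618 CPM after HAND2 knockdown. Both knockdown groups lay above siCTR, siMYCN the more so. It rose by 0.26 in siMYCN (standard error 0.04, limma adjusted p = 0.000134), with a call in all 19 alternatives. In siHAND2 the change was 0.11 (adjusted p = 0.0596), which passed after quantile normalization (0.13) and without siHAND2 replicate 2 (0.14). The direct difference was -0.15 (adjusted p = 0.0104), lost without siHAND2 replicate 2 (-0.12).

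ITGB5 (chromosome 3, 124761948 to 124901418), a partner of ITGAV for vitronectin, went the other way. It stood at 18.5, 18.9 and 18.2 CPM in the siCTR libraries, 16.9, 16.03 and 15.6 CPM after MYCN knockdown, and 11.7, 11.4 and 12.6 CPM after HAND2 knockdown, with no overlap between groups. It fell by 0.60 in siHAND2 (standard error 0.07, limma adjusted p = 2.84e-06), and the direct difference was -0.41 (adjusted p = 0.000149); both held in all 19 alternatives. The fall in siMYCN was smaller, at -0.19 (adjusted p = 0.0332), and was lost in 6 of 19 alternatives. Those were the fit with no filter and the fits without siCTR replicate 1 (-0.19), siCTR replicate 2 (-0.17), siCTR replicate 3 (-0.20), siMYCN replicate 2 (-0.18) or siMYCN replicate 3 (-0.16).

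ITGB3, the other common partner of ITGAV, ranged from 6.22 to 6.46 CPM in siCTR, 6.67 to 8.99 CPM in siMYCN and 6.72 to 8.75 CPM in siHAND2. Both knockdown groups lay above siCTR, but with a wide spread, and the siMYCN change of 0.26 (limma adjusted p = 0.0662) and the siHAND2 change of 0.26 (adjusted p = 0.0737) missed the threshold. They passed it without siMYCN replicate 1 (0.35) and without siHAND2 replicate 2 (0.35), respectively, and the siMYCN change also with the 2 groups fitted alone.

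The 4 laminin alpha chains followed here behaved differently from one another. Alpha chains set the receptor and the tissue of each laminin. LAMA4 (chromosome 6, 112107931 to 112254939), the chain of laminins around vessels, muscle and nerve, stood at 0.550, 0.899 and 0.664 CPM in the siCTR libraries, 1.05, 1.04 and 1.61 CPM after MYCN knockdown, and 3.65, 3.62 and 3.37 CPM after HAND2 knockdown. The groups did not overlap, and the siHAND2 libraries were close together and far above the rest. No siCTR library reached 1 CPM, so LAMA4 was tested only through its knockdown libraries. Its p-values against siCTR are therefore not independent of the filter. LAMA4 rose by 1.42 in siHAND2 (standard error 0.13, limma adjusted p = 3.85e-07), and mean CPM was 5.04-fold that of siCTR. Against siMYCN the difference was 1.04 (adjusted p = 1.32e-05). Its rise in siMYCN, of 0.38 (adjusted p = 0.0292), was not called in the fits without siMYCN replicate 3 (0.27), siCTR replicate 1 (0.32) or siCTR replicate 3 (0.37), after quantile normalization (0.33), with no filter, and at a pseudocount of 5 CPM (0.13).

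LAMA3 (chromosome 18, 23689443 to 23956222), the chain of epithelial basement membranes, stood at 0.214, 0.487 and 0.427 CPM in the siCTR libraries, 0.161, 0.230 and 0.171 CPM after MYCN knockdown, and 1.22, 1.16 and 1.17 CPM after HAND2 knockdown. The siHAND2 libraries stood apart above all others, and LAMA3 was tested only because these 3 libraries reached 1 CPM, so it had to differ and its p-values are no independent support. LAMA3 rose by 0.67 in siHAND2 (standard error 0.13, limma adjusted p = 0.00116) and differed by 0.88 from siMYCN (adjusted p = 9.90e-05). The markers of epithelial cells summed to 3.06 to 3.22 CPM in siCTR and 2.83 to 3.95 CPM in siHAND2, with KRT8 under 0.2 CPM. LAMB3, the beta chain that joins LAMA3 in epithelial laminin, stayed at or under 0.0798 CPM in every library.

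LAMA1 (chromosome 18, 6941742 to 7117797), the chain of the earliest embryonic laminin, stood at 33.4, 33.2 and 34.6 CPM in the siCTR libraries, 25.2, 25.3 and 24.5 CPM after MYCN knockdown, and 34.6, 36.7 and 36.0 CPM after HAND2 knockdown. The siMYCN libraries lay below all others by a wide gap relative to their spread. LAMA1 fell by 0.42 in siMYCN (standard error 0.05, limma adjusted p = 1.18e-05), while its change in siHAND2 was 0.08 (adjusted p = 0.249). Between the knockdowns the difference was 0.50 (standard error 0.05, adjusted p = 1.37e-06), and both calls held in all 19 alternatives.

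LAMA5 (chromosome 20, 62307955 to 62367312), the chain most widespread in adult basement membranes, stood at 15.8, 15.7 and 12.8 CPM in the siCTR libraries, 18.3, 18.2 and 16.1 CPM after MYCN knockdown, and 17.5, 17.2 and 14.6 CPM after HAND2 knockdown. Replicate 3 was the lowest in each group. The rise of 0.24 in siMYCN (standard error 0.09, limma adjusted p = 0.0470) was lost in 8 of 19 alternatives, among them median-ratio rescaling (0.18), quantile normalization (0.15) and the fits without siCTR replicate 3 (0.14), siMYCN replicate 1 (0.21), siMYCN replicate 2 (0.21) or siHAND2 replicate 2 (0.24). In siHAND2 the change was 0.15 (adjusted p = 0.232). ADRM1, which overlaps LAMA5 on the other strand at 39.7 to 49.1 CPM, was called in no contrast.

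The beta chains moved oppositely in siMYCN. LAMB1 (chromosome 7, 107923799 to 108003187), the main beta chain here, stood at 153, 156 and 151 CPM in the siCTR libraries, 143, 137 and 140.5 CPM after MYCN knockdown, and 150.7, 141 and 142 CPM after HAND2 knockdown. LAMB2 (chromosome 3, 49121114 to 49133118), the beta chain of synapses and kidney, stood at 12.7, 11.5 and 10.2 CPM in the siCTR libraries, 14.98, 14.7 and 13.8 CPM after MYCN knockdown, and 12.3, 11.9 and 9.88 CPM after HAND2 knockdown. In siMYCN every LAMB1 value lay below siCTR and every LAMB2 value above it. LAMB1 fell by 0.13 (standard error 0.04, limma adjusted p = 0.0217), a call lost without siCTR replicate 1 (-0.13), siCTR replicate 2 (-0.12), siMYCN replicate 2 (-0.11) or siMYCN replicate 3 (-0.13). The LAMB1 call was also lost with no intensity trend. LAMB2 rose by 0.32 (standard error 0.09, adjusted p = 0.0113), a call lost after quantile normalization (0.24) and without siCTR replicate 3 (0.24).

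In siHAND2 the changes of LAMB1 (-0.09, limma adjusted p = 0.131) and LAMB2 (-0.01, adjusted p = 0.935) missed the threshold, and that of LAMB1 passed it after median-ratio rescaling (-0.14) and quantile normalization (-0.12). The direct difference of LAMB2 was -0.33 (adjusted p = 0.0117), lost without siHAND2 replicate 3 (-0.24). LAMC1 (chromosome 1, 183023420 to 183145592), the gamma chain of most laminins, ranged from 101 to 112 CPM in siCTR, 93.0 to 106 CPM in siMYCN and 94.9 to 101 CPM in siHAND2. Its changes of -0.10 in siMYCN (adjusted p = 0.143) and -0.13 in siHAND2 (adjusted p = 0.0779) missed the threshold and passed it after both other scalings, at -0.16 and -0.16 in siMYCN and -0.19 and -0.16 in siHAND2. They also passed it without siMYCN replicate 1 (-0.15) and without siCTR replicate 3 (-0.16), respectively. DLD, which overlaps LAMB1 on the other strand at 102 to 113 CPM, was called in no contrast.

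Per kb of merged exons, the make-up of the alpha subunits and chains shifted, given here as a description with no test. The sums and shares depend on the merged lengths and cover only the genes followed here. The integrin alpha genes summed to 20.6 ± 0.0993 CPM per kb with siCTR, 24.9 ± 0.632 after MYCN knockdown and 25.0 ± 1.41 after HAND2 knockdown (SD, n = 3 libraries). Both knockdown sums were higher, with no overlap with siCTR. ITGA6 made up 8.47 ± 1.10%, 11.7 ± 0.137% and 14.9 ± 0.991% of them, ITGA1 21.9 ± 0.184%, 21.7 ± 0.852% and 27.6 ± 0.599%, and ITGAV 21.1 ± 0.836%, 19.0 ± 0.726% and 16.7 ± 0.829%. The laminin alpha genes summed to 3.25 ± 0.0738, 2.92 ± 0.0867 and 3.78 ± 0.124 CPM per kb, so siMYCN was lowest and siHAND2 highest. LAMA4 held 1.81 ± 0.439%, 3.54 ± 1.06% and 7.82 ± 0.180% of that sum, and LAMA1 65.6 ± 2.96%, 54.0 ± 0.738% and 59.6 ± 2.33%.

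**Figure D3:**
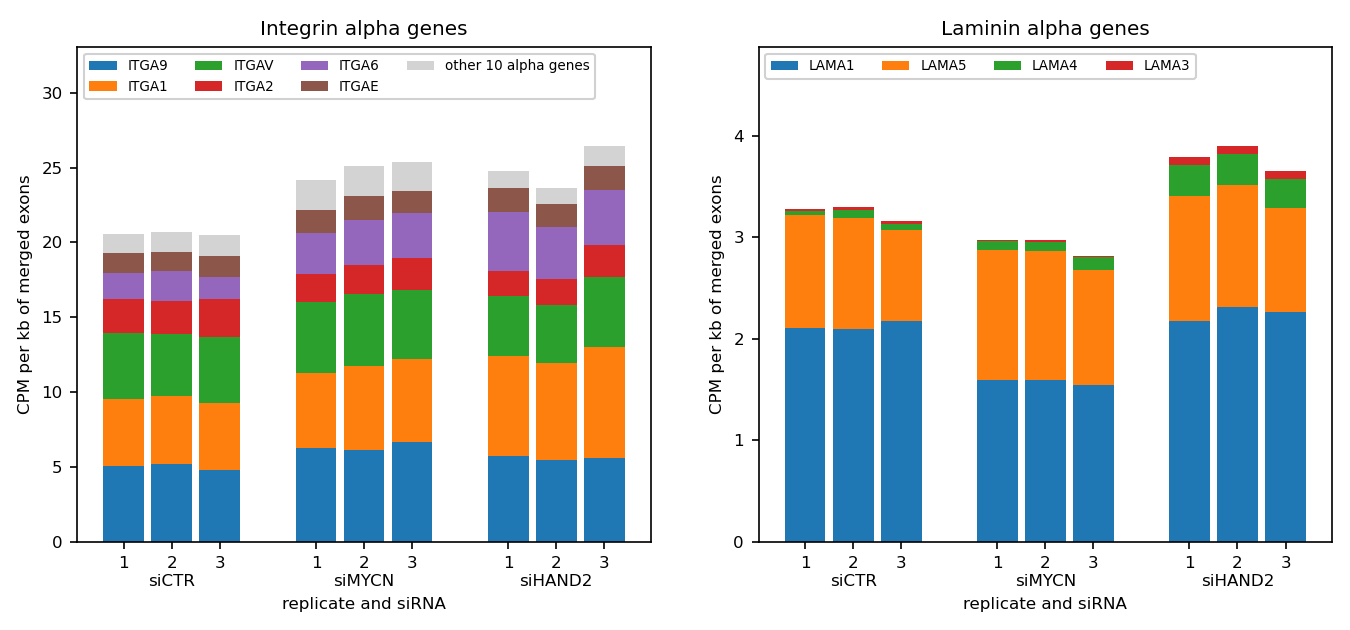
CPM per kb of merged exons (y axis) of the integrin alpha genes (left) and laminin alpha genes (right), stacked, with 1 bar per library in the groups siCTR, siMYCN and siHAND2. The integrin sums rise from 20.6 in siCTR to 24.9 and 25.0 in the knockdowns, and the LAMA4 part of the laminin bars is largest in siHAND2.

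The 13 members under the filter were near the limit of detection. Without a filter, 1 of them was called lower in siMYCN, 3 in siHAND2 and 2 in siHAND2 against siMYCN, where 0.727%, 0.944% and 1.37% of the 10589 genes under the filter were. Between 951 and 1836 genes had no reads in a given library, so these shares are not from genes of like level. ITGA4, the subunit of receptors for VCAM1 and fibronectin, stood at 0.795, 0.711 and 0.570 CPM in the siCTR libraries, 0.725, 0.575 and 0.822 CPM after MYCN knockdown, and 0.0988, 0.319 and 0.390 CPM after HAND2 knockdown, the last being 3, 8 and 11 reads. The siHAND2 libraries lay below all others, with a log2 change against siCTR of -0.42 (limma with no filter, adjusted p = 0.0103). ITGAL, a leukocyte subunit, stood at 0.550, 0.487 and 0.570 CPM in the siCTR libraries, 0.765, 0.844 and 0.685 CPM after MYCN knockdown, and 0.263, 0.0798 and 0.213 CPM after HAND2 knockdown. It changed by -0.38 in siHAND2 (adjusted p = 0.00571) and by -0.58 against siMYCN (adjusted p = 0.000182), where its partner ITGB2 was not analysed. LAMC3 stood at 0.550, 1.12 and 1.28 CPM in the siCTR libraries, 0.322, 0.269 and 0.343 CPM after MYCN knockdown, and 0.263, 0.478 and 0.567 CPM after HAND2 knockdown. It changed by -0.58 in siMYCN (adjusted p = 0.00459) and by -0.45 in siHAND2 (adjusted p = 0.0238), the latter with siHAND2 replicate 3 above siCTR replicate 1. ITGA5, ITGA10, ITGAM, ITGB4, ITGB7, LAMB3 and LAMB4 stayed at or under 0.285 CPM, and ITGA7 and ITGB8 at or under 0.805 CPM.

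**Figure D4:**
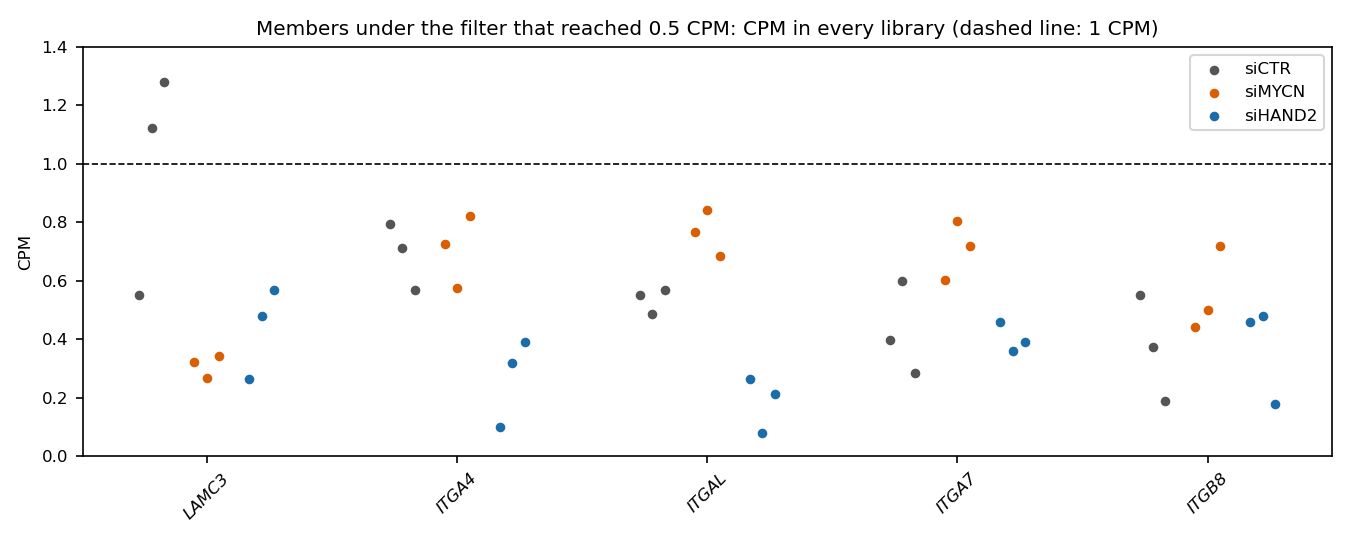
CPM (y axis) of the 5 members that did not reach 1 CPM in 3 libraries but reached 0.5 CPM in at least 1, with 1 point per library and a dashed line at 1 CPM. ITGA4 and ITGAL are lowest in siHAND2, and LAMC3 is highest in siCTR replicates 2 and 3.

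Proteins that link integrins to actin and signalling were followed as a list of 41, of which 34 were tested. In siMYCN 17 rose and 3 fell, with a median of 0.16, where 24.5% and 11.4% of all genes did. In siHAND2 6 rose and 4 fell, with a median of 0.03, close to the 18.1% and 11.8% of all genes. Against siMYCN, 4 were higher and 13 lower in siHAND2, where 11.4% and 15.5% of all genes were. TNS3, a tensin that binds integrin beta tails, went from 52.1 ± 1.84 CPM in siCTR to 73.9 ± 1.11 after MYCN knockdown and 25.2 ± 1.67 after HAND2 knockdown (SD, n = 3 libraries). It rose by 0.50 in siMYCN (limma adjusted p = 3.32e-06) and fell by 1.02 in siHAND2 (adjusted p = 5.64e-10). The actin crosslinker ACTN1 did likewise, with 208 ± 7.77, 251 ± 9.59 and 120.1 ± 5.31 CPM, a rise of 0.27 (adjusted p = 0.000279) and a fall of 0.79 (adjusted p = 2.02e-09). The kinase SRC rose in both, by 0.62 in siMYCN (adjusted p = 7.72e-07) and by 0.22 in siHAND2 (adjusted p = 0.00731).

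Other basement membrane proteins and laminin-binding proteins formed a list of 23, of which 15 were tested. In siMYCN 4 rose and 4 fell, where 24.5% and 11.4% of all genes did. In siHAND2 7 rose and 2 fell, where 18.1% and 11.8% did, and against siMYCN 8 were higher and 2 lower in siHAND2, where 11.4% and 15.5% were. Their medians were 0.11, 0.10 and 0.17. COL4A1, a chain of the collagen network of basement membranes, averaged 33.4 ± 1.49 CPM with siCTR, 28.5 ± 1.84 after MYCN knockdown and 56.3 ± 4.50 after HAND2 knockdown (SD, n = 3 libraries). It fell by 0.22 in siMYCN (limma adjusted p = 0.0127) and rose by 0.73 in siHAND2 (adjusted p = 2.64e-07). PXDN, the peroxidase that crosslinks that network, rose by 0.46 in siHAND2 (adjusted p = 2.26e-06) and changed by 0.02 in siMYCN (adjusted p = 0.839). The laminin receptor dystroglycan, DAG1, rose by 0.35 in siMYCN (adjusted p = 0.000178) and changed by -0.02 in siHAND2 (adjusted p = 0.796). RPSA, a ribosomal protein once described as a laminin receptor, fell by 0.41 in siMYCN (adjusted p = 1.61e-06) and by 0.24 in siHAND2 (adjusted p = 0.000296).

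Of 30 other integrin ligands, 11 were tested, and 4 rose and 3 fell in siMYCN, beside 24.5% and 11.4% of all genes. In siHAND2 4 rose and 1 fell, beside 18.1% and 11.8%. Against siMYCN, 5 were higher and 3 lower in siHAND2, beside 11.4% and 15.5%, and the medians of the 3 contrasts were 0.16, 0.14 and -0.04. Tenascin-C, TNC, a ligand of integrins with ITGA8 and ITGA9, averaged 142 ± 7.95 CPM with siCTR, 298 ± 9.77 after MYCN knockdown and 189.6 ± 20.3 after HAND2 knockdown (SD, n = 3 libraries). It rose by 1.07 in siMYCN (limma adjusted p = 1.31e-08) and by 0.41 in siHAND2 (adjusted p = 9.63e-05). VCAM1, a ligand of integrins with ITGA4 and ITGA9, stood at 0.275, 0.225 and 0.285 CPM in the siCTR libraries, 0.322, 0.652 and 0.274 CPM after MYCN knockdown, and 3.62, 2.63 and 3.79 CPM after HAND2 knockdown. It reached the level for testing only through siHAND2, so it had to differ, and it is among the ligands counted as higher in siHAND2 against siCTR and against siMYCN. Its change of 1.77 in siHAND2 (limma adjusted p = 1.06e-07) is therefore no independent support. The related tenascin TNR differed by -1.14 between siHAND2 and siMYCN (adjusted p = 6.68e-09) and LTBP1, which anchors latent TGF-beta, by 1.04 (adjusted p = 9.97e-10). THBS2, a thrombospondin, fell by 1.07 in siMYCN (adjusted p = 1.48e-08) and by 0.88 in siHAND2 (adjusted p = 3.49e-08).

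Most of the tested markers of fibroblasts rose in siHAND2, in which LAMA4, ITGA1, ITGA6 and COL4A1 were highest. ITGA11 did not follow that order, with a mean of 2.46 CPM in siMYCN and 2.21 CPM in siHAND2. The summed level of the 6 genes of that list was 165 to 171 CPM in siCTR, 195 to 204 CPM in siMYCN and 301 to 344 CPM in siHAND2, with no overlap between groups. Of the 5 tested, DCN, LUM, COL1A2 and PDGFRB rose and THY1 fell in siHAND2, and DCN, LUM, COL1A2 and THY1 rose in siMYCN, while COL1A1 stayed at or under 0.936 CPM in every library. DCN had no siCTR library at 1 CPM and was tested only through its knockdown libraries. PDGFRB was already at 89.8 ± 3.07 CPM in siCTR and stood at 179 ± 17.3 CPM in siHAND2 (SD, n = 3 libraries). In these bulk libraries, a change in the share of cells of a kind and a change of RNA per cell cannot be told apart. The part of such cells in the changes of the integrin and laminin genes was not tested.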

How the data were processed

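RNA sequencing of total RNA from 9 LAN5 libraries was deposited as 1 table. The authors' values are CPM, a unit taken from the table's name and from column sums that are alike in every library, with a constant of 0.0001 in every value. STAR 2.5.1, Partek and the builds hg19 and GRCh37 are named, per the submitters' processing notes. The positions in the table nevertheless match GRCh38: 91.4% of 18213 symbols start within 5000 bases of their GRCh38 start, against 5.65% of 18474 for GRCh37. Positions are therefore given as GRCh38, counted from 1. The counting tool and its use of strand are not given in the sources used here. Every value column was used.

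Only 79.5% to 81.0% of low values were whole multiples of a read (within 0.02 of a step), so no count model was used. The 14495 of 25084 genes that reached 1 CPM in 3 or more libraries were fitted as log2(CPM + 1) with limma 3.58.1 in R 4.3.3, with 1 mean per group over all 9 libraries and an intensity trend, and p-values were Benjamini-Hochberg adjusted over all genes tested. The code was checked on simulated data. Exon lengths were merged over all transcripts of a GRCh37 annotation, by symbol. Values in every library are given for members called in at least 1 contrast, and for each list of related genes the 2 with the smallest p in each contrast are named; PELO, HASPIN, ADRM1, DLD, ITGA6-AS1, ITGA9-AS1 and members under the filter were singled out after their values were seen. The members and lists were chosen with earlier results of these data known. Alternatives were other pseudocounts (0.1 and 5 CPM), no filter or a filter of 5 CPM, 2 other scalings, 2 groups alone, no trend, precision weights, a replicate block and each library left out. The values of 1 member under the filter are not reported here.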

Additional observations from a re-analysis of the deposited data

How the results depend on the processing

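Over the 20 tested members and 3 contrasts, 1031 of 1122 values under the alternatives kept their direction and side of the threshold, 50 lost a call, 33 gained one and 8 changed sign; no called value changed sign. Calls held in every alternative that tested the member for 7 of 13 called in siMYCN, 5 of 7 in siHAND2 and 8 of 12 in the direct comparison. The 5 and the 8 include LAMA3, which had to differ because of the filter. ITGA3, ITGA8, LAMA3 and LAMA4, whose calls are among those that held, were not tested with the filter of 5 CPM. Leaving out 1 library at a time gave 6 to 11 members higher and 1 to 4 lower in siMYCN, 4 to 8 higher and 1 to 4 lower in siHAND2, and 5 higher and 4 to 7 lower in siHAND2 against siMYCN. The extremes for siHAND2 came without siHAND2 replicate 2 (8 higher, 1 lower) and siHAND2 replicate 3 (4 lower), and the 6 higher in siMYCN came without siCTR replicate 3. The single fall left in siMYCN came without siCTR replicate 1, siCTR replicate 2, siMYCN replicate 2 or siMYCN replicate 3, and the 4 lower in the direct comparison without siHAND2 replicate 2. With a filter of 5 CPM, which tests fewer genes, 6 members were higher in siMYCN and 3 in siHAND2 against siMYCN. Median-ratio rescaling and quantile normalization each gave 5 lower in siMYCN and 5 lower in siHAND2. In the fit with no filter, which tests more genes, 5 were lower in siHAND2. For the fits with a library left out or with a changed filter, the share of all genes called is not given here. Their member counts therefore cannot be told from fits that call more or fewer genes of every kind.

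With replicate number as a block, 11 members were higher and 4 lower in siMYCN and 6 higher and 4 lower in siHAND2. The share of all genes tested that this fit called is not given here. The added member calls therefore cannot be told from a fit that calls more genes of every kind. The block added ITGB3 and ITGA2 in siMYCN and ITGB1, ITGA3 and LAMC1 in siHAND2, and removed no call against siCTR. The numbers were not taken as pairing the libraries, since not every same-number correlation was over 0.1. The deviations of same-numbered libraries from their group means correlated at -0.04 to 0.31, under 0.1 for the pairs of replicate 2. Not every library correlated best with its own number. The median was nevertheless 0.17 for same-numbered libraries. For differently numbered ones it was -0.07, with a range of -0.30 to 0.14. The main fit holds no term for replicate number.

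Changes of sign all concerned values not called. LAMC1 in siHAND2 against siMYCN became 0.0009 after quantile normalization and ranged from -0.0707 to 0.0228 with 1 library left out. With 1 library left out, ITGB3 there ranged from -0.0942 to 0.0961, and in siHAND2 against siCTR ITGA2B ranged from -0.0986 to 0.0584 and LAMB2 from -0.0897 to 0.0773. Depth limits the members under 1 CPM, which stood for at most about 30 reads in a library.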
